A study of Homo sapiens with 6 samples.

Results

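The 55 cytochrome P450 genes of the human genome that carry the usual name, CYP with a family number, a subfamily letter and a member number, were described for lactylation of histone H4 at lysine 5 (H4K5la). They are all the protein-coding genes in a RefSeq table of GRCh38.p14 whose symbol has that form, out of 19974 protein-coding genes on chromosomes 1 to 22 and X. The rule uses the symbol and no measured value, although it was chosen with earlier results of these data known. H4K5la was mapped by chromatin immunoprecipitation and sequencing (ChIP-seq) in PLC/PRF/5, an established human hepatocellular carcinoma line. The lactate group holds 2 libraries (replicates 2 and 3) from cells cultured with 20 mM lactate for 24 h. The control group holds 2 libraries (replicates 2 and 3) from the same line labelled as control. The labels name no genetic change in either group, and all libraries come from this single line, so other liver cells are not represented. Input chromatin, 1 library for each treatment, was not analysed here.

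Cytochrome P450 enzymes are haem proteins that insert an oxygen atom into small molecules. Most sit in the endoplasmic reticulum and take electrons from P450 oxidoreductase, while a mitochondrial group takes them from ferredoxin. Hepatocytes are the main site of P450 drug metabolism and of bile acid synthesis, and many liver P450 genes are transcribed under nuclear receptors such as PXR, CAR and HNF4A. Histone lactylation is an acyl mark whose donor derives from lactate.

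Each peak list gives the places where the signal of 1 library passed a threshold near a -log10 q of 2, and a gene with no peak may carry the mark below it. A gene was scored as having a peak when a peak overlapped the gene span or the 5 kb on either side. The fold enrichment of a peak is the authors' ratio of signal over local background at the summit. The lists held 37951 and 38402 peaks in the lactate libraries and 52215 and 52959 in the control libraries. The number of reads at each summit, recovered from the authors' values, had a median of 21 and 24 in the lactate libraries and of 23 in each control library. Nothing in the labels says that the replicates came from separate cultures, so the spread between them may be technical. Of 7 liver markers, HNF4A and APOA1 had a peak in all 4 libraries, SERPINA1 had one in control replicate 3, and ALB, AFP, GPC3 and TTR had none. A list of peaks gives no expression, so these values do not check the cell type.

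Of the 55 genes, 28 had a peak in at least 1 library (59.4% of all coding genes did) and 27 had none. A peak was present in all 4 libraries at 12 genes (21.8%), where 33.0% of all coding genes had one. Peaks in both control libraries and no lactate library were found at 5 genes (9.09%), against 5.77% of all coding genes. Peaks in both lactate libraries and no control library were found at CYP2A13 alone (1.82%), against 1.11% of all coding genes. The other 10 genes had some other combination. Within the gene span alone, 10 P450 genes were marked in all 4 libraries (27.5% of coding genes), 4 in the control libraries alone (5.31%) and 1 in the lactate libraries alone (1.0%). The median window was 31.9 kb for the P450 genes and 34.2 kb for all coding genes, so the windows of the family are slightly shorter. With windows of 20 kb on either side, 21 P450 genes had a peak in all 4 libraries. The share of all coding genes was not computed at that flank, so the 21 cannot be set against the 33.0%.

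The marked genes are given here by the role of their enzymes. Of 17 genes whose enzymes mainly handle drugs and other foreign compounds, CYP1A2 had a peak in all 4 libraries and 11 had none. Of 11 genes for fatty acids and eicosanoids, 4 had a peak in all 4 libraries (CYP4F2, CYP4F8, CYP4F11 and CYP4F22) and 3 had none. CYP11A1, CYP11B2 and CYP21A2 had one among 6 steroid hormone genes, CYP26B1 and CYP27C1 among 4 retinoid genes, CYP24A1 among 3 vitamin D genes, and CYP46A1 among 7 sterol and bile acid genes. None of the 7 genes of less settled role had a peak in all 4 libraries. These counts were not tested against each other.

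**Figure D1:**
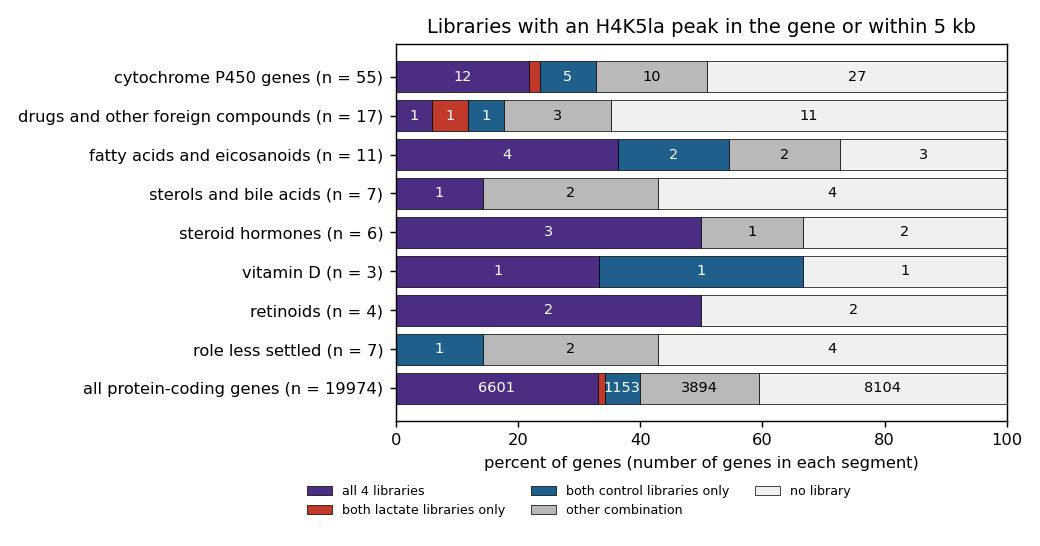
Each bar is a group of genes split by the libraries that had an H4K5la peak in the gene or within 5 kb, as a percent of the group on the x axis, with the number of genes in each segment. The drug-metabolism bar is mostly empty (11 of 17 genes without a peak), and the top bar shows 12 of 55 P450 genes with a peak in all 4 libraries beside 6601 of 19974 coding genes in the bottom bar.

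Peaks over the start of transcription are given first. The table of RefSeq promoters used (GRCh38.p14, 250 bases before to 50 after the start) matched 39 of the 55 genes. A peak overlapped this window in all 4 libraries at CYP4F2 and CYP4F11, which is 5.13% of the 39 promoters, against 2.52% of 15812 coding gene promoters. It did so in both control libraries alone at CYP2J2 (2.56%, against 2.66%). At CYP4F8 it did so in lactate replicate 2 and both control libraries. No P450 promoter had one in both lactate libraries alone (0.455% of coding promoters). CYP2W1 and CYP4F3 had such a peak in control replicate 2 alone. With CYP4F8 these make up 7.69% of the P450 promoters, against 8.25% of coding promoters with some other combination. The other 33 promoters had none (84.6%, against 86.1% of coding promoters). The 4 promoters marked in both libraries of a treatment are printed 5′ to 3′ on the coding strand, with each CpG dinucleotide in capitals, to show how different in base composition the marked starts are.
CYP4F2 (chr19:15898025-15898324, minus strand): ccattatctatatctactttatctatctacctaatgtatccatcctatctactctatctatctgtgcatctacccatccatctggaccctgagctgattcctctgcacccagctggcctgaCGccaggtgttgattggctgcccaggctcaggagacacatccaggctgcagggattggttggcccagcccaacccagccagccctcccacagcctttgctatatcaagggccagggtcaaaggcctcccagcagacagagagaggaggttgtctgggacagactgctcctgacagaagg
CYP4F11 (chr19:15934818-15935117, minus strand): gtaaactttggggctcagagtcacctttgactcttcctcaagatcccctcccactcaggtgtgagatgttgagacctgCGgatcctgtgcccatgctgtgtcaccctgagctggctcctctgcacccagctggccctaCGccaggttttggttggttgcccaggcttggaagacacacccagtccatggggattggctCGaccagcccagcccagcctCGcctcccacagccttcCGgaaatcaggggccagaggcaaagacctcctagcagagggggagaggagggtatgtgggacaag
CYP4F8 (chr19:15614968-15615267, plus strand): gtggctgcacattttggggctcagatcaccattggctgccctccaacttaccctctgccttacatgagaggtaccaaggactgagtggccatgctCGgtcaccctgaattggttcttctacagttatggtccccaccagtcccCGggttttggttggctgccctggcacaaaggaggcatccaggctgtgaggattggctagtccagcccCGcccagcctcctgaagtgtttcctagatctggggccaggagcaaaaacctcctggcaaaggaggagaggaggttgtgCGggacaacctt
CYP2J2 (chr1:59926724-59927023, minus strand): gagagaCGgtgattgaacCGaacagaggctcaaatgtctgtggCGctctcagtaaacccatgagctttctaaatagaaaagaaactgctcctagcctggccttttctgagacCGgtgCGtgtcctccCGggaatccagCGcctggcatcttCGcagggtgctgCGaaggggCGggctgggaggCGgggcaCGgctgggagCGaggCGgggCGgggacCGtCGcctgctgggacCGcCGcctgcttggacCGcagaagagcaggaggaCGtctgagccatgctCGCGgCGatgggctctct

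The CYP2J2 promoter holds 24 CpG dinucleotides, CYP4F11 holds 5, CYP4F8 holds 4 and CYP4F2 holds 1. Across the 39 P450 promoters the median was 5 (range 0 to 36), while all coding gene promoters had a median of 22. The 398 coding promoters with a peak in all 4 libraries had a median of 14.5 CpG, and the 13617 with none had a median of 23. The CpG-rich P450 promoters of CYP4V2 (36), CYP20A1 (31) and CYP2U1 (31) had no peak in any library. In a global alignment the 3 printed CYP4F promoters had 66.7% identity between CYP4F2 and CYP4F11, 67.9% between CYP4F11 and CYP4F8, and 59.1% between CYP4F2 and CYP4F8. Against CYP2J2, a gene of another family, they had 48.9 to 51.3%, and against CYP4F3, of their own subfamily, 43.5 to 49.6%.

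Short motifs were searched on both strands of the same windows, and a match is only a run of letters. TATAAA, the TATA box, was found in 35.9% of the P450 promoters and in 9.64% of all coding gene promoters, but in none of the 4 printed. CAAAG, a core of the sites bound by HNF4 proteins, was found in 66.7% against 42.5%, with 2 matches in CYP4F2, 2 in CYP4F8 and 3 in CYP4F11. GCGTG, the core bound by the dioxin receptor with its partner ARNT, was found in 28.2% against 44.1%. CYP2J2 holds 1 copy of it, and the 3 printed CYP4F promoters hold none. GCGTG holds a CpG, so its count is tied to the CpG count, while TATAAA and CAAAG hold none. All 3 counts can still follow base composition, and the comparison was not matched for it.

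At CYP4F2, which encodes an omega-hydroxylase of arachidonic acid and vitamin K, the summit lay 60 and 62 bases downstream of the start in the lactate libraries and 64 and 61 bases downstream in the control libraries. The peak was 337 and 315 bp wide in the lactate libraries and 800 and 782 bp wide in the control libraries, so the groups did not overlap in width. The summit held 27 and 29 reads in the lactate libraries and 32 and 29 reads in the control libraries. CYP4F11, whose enzyme hydroxylates long-chain fatty acids, had its summit 498 and 491 bases into the gene in the lactate libraries and 21 and 27 bases into it in the control libraries. The CYP4F11 peak was 726 and 742 bp wide in the lactate libraries and 597 and 813 bp wide in the control libraries, and these ranges overlap. At CYP2J2, an epoxygenase of arachidonic acid, the control peaks were 490 and 353 bp wide with 22 and 24 reads. Their summits lay 82 and 40 bases downstream of the start in the promoter table. That start lies well inside the CYP2J2 gene span, which runs from 59893308 to 59969212. The nearest lactate peaks lay 104464 and 83560 bp from the CYP2J2 gene span.

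The next comparison asked how lactate and control libraries differed over the P450 windows as a whole. The windows cover 2.28 Mb. They held 30 and 22 peaks in the lactate libraries and 36 and 41 in the control libraries, a mean of 26.0 ± 5.66 against 38.5 ± 3.54 (SD, n = 2 each). The ratio of lactate to control was 0.675 (exact two-sided permutation test, p = 0.333, the smallest that 2 libraries against 2 allow). Over the windows of all coding genes the ratio was 0.723. When every library was limited to the same number of peaks, the P450 ratio was 0.864 (exact permutation p = 0.667).

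Peaks that touched P450 windows were counted at full width, even where they ran past the window, and their sum is called the covered length. It equalled 0.694 and 0.558% of the window length in the lactate libraries and 1.28 and 1.40% in the control libraries. Over all coding gene windows it equalled 1.14 and 1.13% in the lactate libraries and 2.17 and 2.19% in the control libraries. The ratio of covered length was 0.467 in the P450 windows (exact permutation p = 0.333) and 0.520 over all coding gene windows. The P450 windows held fewer peaks per Mb than coding gene windows in each of the 4 libraries, at 13.2 and 9.65 against 19.3 and 19.6 with lactate, and at 15.8 and 18.0 against 26.6 and 27.3 in control. The median P450 peak was 416 and 431.5 bp wide in the lactate libraries and 615 and 686 bp wide in the control libraries, with no overlap (exact permutation p = 0.333). Over all peaks the median width was 448 and 437 bp in the lactate libraries and 547 and 537 bp in the control libraries, which separates the groups in the same direction. P450 peaks 1 kb or wider came to 1 and 4 in the lactate libraries (3.33 and 18.2% of P450 peaks) and 7 and 8 in the control libraries (19.4 and 19.5%). Over all peaks these shares were 9.69 and 9.16% in the lactate libraries and 20.2 and 19.7% in the control libraries. The share of all peaks that lay in P450 windows was 0.0790 and 0.0573% in the lactate libraries and 0.0689 and 0.0774% in the control libraries (exact permutation p = 1). These shares overlap between the groups. A peak was present at 19 and 16 P450 genes in the lactate libraries and at 22 and 24 in the control libraries, a ratio of 0.761 (exact permutation p = 0.333), against 0.841 over all coding genes.

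**Figure D2:**
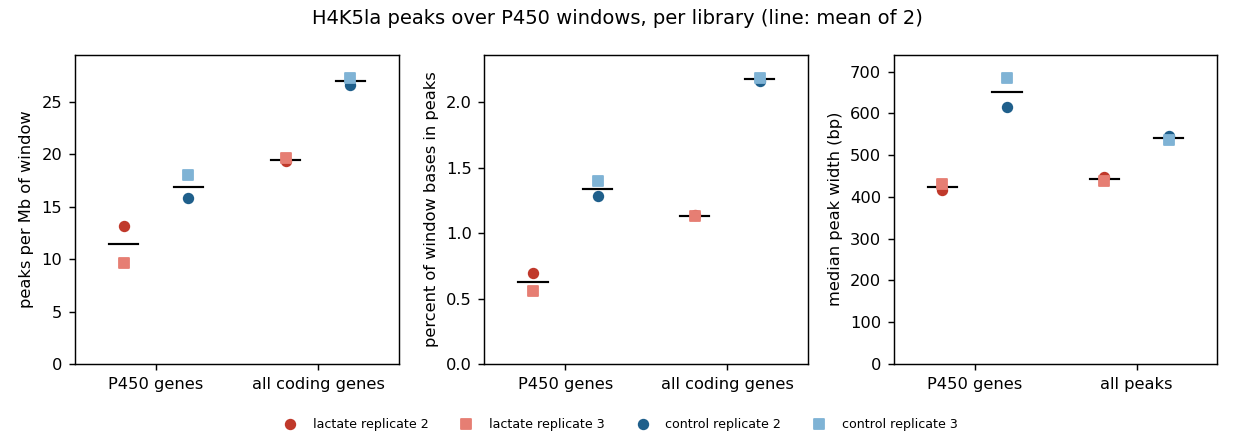
Points are single libraries, lactate left of control, with a line at the mean of 2. The left panel shows peaks per Mb of P450 windows and all coding gene windows. The middle panel, labelled percent of window bases in peaks, shows the summed full width of those peaks as a percent of window length. The right panel shows the median width in bp of P450 peaks and of all peaks. P450 windows lie below coding gene windows in the first 2 panels in every library, and lactate lies below control throughout.

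The retinoid genes included the member with the largest summed peak width of the family in the control libraries. CYP26B1, which encodes a retinoic acid hydroxylase, lies on chromosome 2 from 72129238 to 72147862 on the minus strand. Its window held 3 and 2 peaks in the lactate libraries and 6 in each control library. These peaks summed to 2498 and 1743 bp in the lactate libraries and 7869 and 7789 bp in the control libraries. All of the CYP26B1 peaks had their summits 7587 bases or more after the start, and the promoter carried none. Fewer peaks with lactate than with control in both libraries, as at CYP26B1, was seen at 36.6% of the 6601 coding genes marked in all 4 libraries.

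Over the stretch from 72130815 to 72133528 in CYP26B1 the fold enrichment was 4.33 and 4.05 in the lactate libraries and 12.03 and 15.2 in the control libraries. The peak there was 431 and 501 bp wide in the lactate libraries and 2669 and 2157 bp wide in the control libraries. A neighbouring stretch from 72134113 to 72136653 had peaks in the control libraries alone, with 22 and 23 reads at the summit. The groups do not overlap in summed width, highest fold or number of peaks at CYP26B1. Beyond the 3' end of CYP26B1, at 72126638 to 72129028, the fold was 4.83 and 7.28 in the lactate libraries and 15.5 and 14.0 in the control libraries, while the widest peaks there overlapped in width between the groups.

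CYP27C1, which encodes a retinol desaturase, lies on chromosome 2 from 127183832 to 127220299 and had the best mean rank of the 12 genes marked in all 4 libraries. On average 5.88% of the peaks in a library had a higher fold enrichment than its strongest peak, although CYP26B1 ranked better in both control libraries and CYP4F22 in lactate replicate 3. The highest fold was 13.9 and 10.98 in the lactate libraries and 12.7 and 14.3 in the control libraries, and these ranges overlap. Its peaks summed to 1672 and 1542 bp in the lactate libraries and 3093 and 3047 bp in the control libraries. Unlike the fold, the summed width did not overlap between the groups. CYP26A1 and CYP26C1, retinoic acid hydroxylase genes that lie side by side on chromosome 10, had no peak in any library. The nearest peak lay at least 98118 bp from CYP26A1 in each library.

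**Figure D3:**
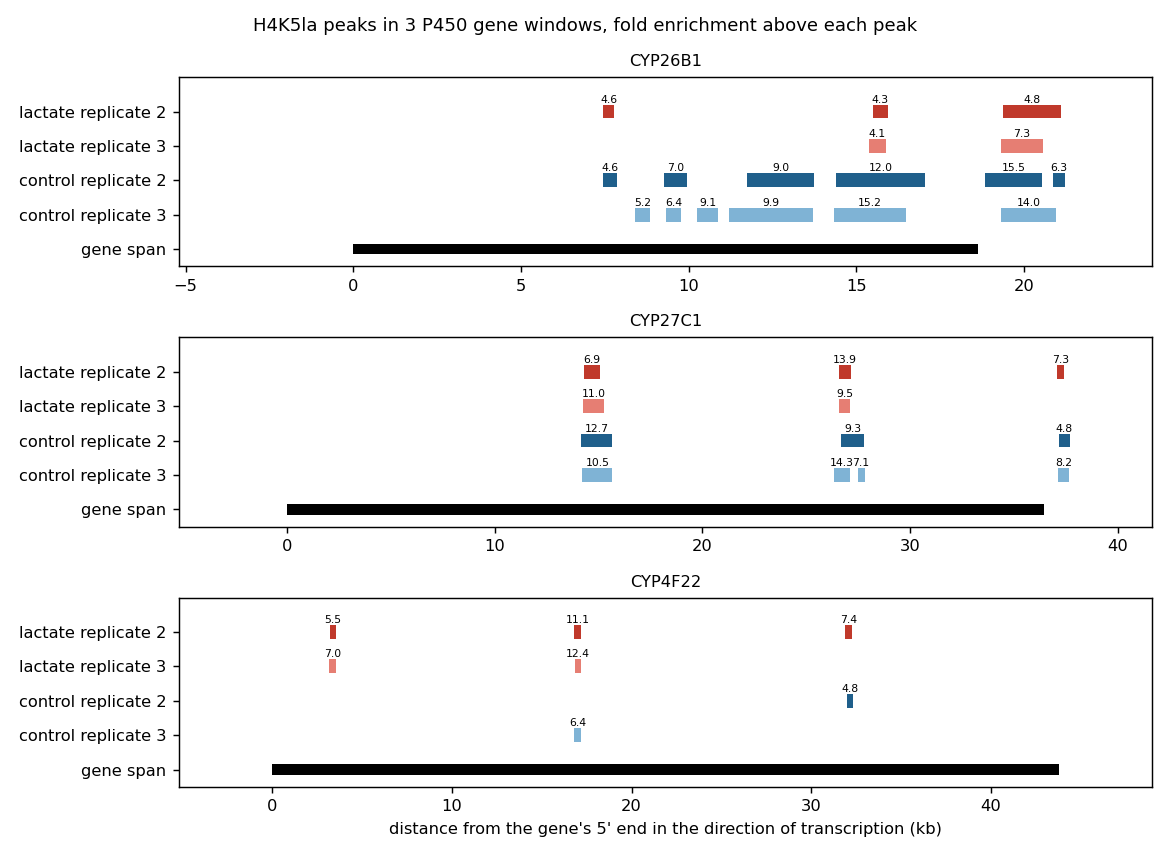
Bars mark H4K5la peaks in the windows of CYP26B1, CYP27C1 and CYP4F22 along the distance in kb from the 5' end of the gene span, with the fold enrichment above each bar and 1 row per library, lactate above control. CYP26B1 shows 3 and 2 peaks in the lactate rows and 6 in each control row, CYP27C1 shows the same 2 sites within the gene in all 4 libraries, and CYP4F22 shows a site about 3 kb into the gene in the lactate libraries alone.

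Of the vitamin D genes, CYP24A1, the 24-hydroxylase that inactivates vitamin D hormone, was marked in all 4 libraries and CYP27B1, the 1-alpha-hydroxylase that makes it, in the control libraries alone. Within CYP24A1 (chromosome 20, 54143538 to 54173986) a site at 54162338 to 54162740 had no peak in lactate replicate 2 and a fold of 4.62 in lactate replicate 3. The same CYP24A1 site had a fold of 10.1 and 10.4 in the control libraries, with 43 and 41 reads against 23 in lactate replicate 3. Another CYP24A1 site, at 54172894 to 54173759, had 37 and 34 reads in the lactate libraries and 35 and 31 in the control libraries. The fold at this site overlapped between the groups, at 4.68 and 3.84 with lactate and 2.435 and 5.47 in control.

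Within CYP27B1 (chromosome 12, 57762334 to 57767078) the control peak was 651 and 1238 bp wide, with a fold of 9.35 and 11.96 and 23 and 28 reads. No lactate peak lay in the gene. A further region at 57772043 to 57773034, over METTL1 and EEF1AKMT3, held a peak in all 4 libraries, and its lactate peaks began 5411 and 5435 bp from CYP27B1, just outside the 5 kb limit. With windows of 20 kb CYP27B1 therefore had a peak in all 4 libraries. CYP2R1, the vitamin D 25-hydroxylase gene, had none, and its nearest peak lay at least 12421 bp away in each library.

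Among the steroid hormone genes, CYP11A1, which starts steroid synthesis by cleaving the cholesterol side chain, lies on chromosome 15 from 74337762 to 74367646. A site near its 3' end, at 74338561 to 74339829, had a fold of 9.08 and 5.82 in the lactate libraries and 8.20 and 9.51 in the control libraries, and these overlap. The CYP11A1 peak there was 573 and 595 bp wide in the lactate libraries and 838 and 1269 bp wide in the control libraries. At CYP21A2, the 21-hydroxylase gene, the peak lay 4387 to 4443 bp from the gene in the lactate libraries and 4373 to 4422 bp from it in the control libraries, downstream of it and within TNXB. CYP21A2 held no peak inside its span. At CYP11B2, the aldosterone synthase gene on chromosome 8, a site outside the gene had a peak in all 4 libraries, 4155 bp away in lactate replicate 2 and 4114 bp away in control replicate 2. The peaks that touched the CYP11B2 window summed to 903 and 1092 bp in the lactate libraries and 2961 and 1223 bp in the control libraries. Whole peaks were counted. The 2961 bp peak ran from 142921957 to 142924917 while the window ended at 142922843, so most of that peak lay outside. The highest fold at CYP11B2 was 5.52 and 6.28 in the lactate libraries and 12.5 and 9.51 in the control libraries, with no overlap. CYP11B1, a cortisol-forming 11-beta-hydroxylase gene next to it, had 1 peak of 15 reads in control replicate 3. CYP17A1 and the aromatase gene CYP19A1 had none.

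CYP46A1, which encodes the cholesterol 24-hydroxylase known from brain, was the sterol gene marked in all 4 libraries. It lies on chromosome 14 from 99684298 to 99727301. A site inside CYP46A1 had 11 and 14 reads with a fold of 5.46 and 6.18 in the lactate libraries, and 16 and 17 reads with a fold of 6.67 and 7.48 in the control libraries. The groups do not overlap at that site. At a site beyond the gene, at 99731571 to 99733193, they do, with a fold of 3.85 and 6.52 in the lactate libraries and 4.78 and 4.17 in the control libraries. With a -log10 q of at least 5, CYP46A1 kept a peak in 1 lactate library and both control libraries. CYP8B1, the sterol 12-alpha-hydroxylase gene that sets the type of bile acid, had no peak in its span. Its window was touched by peaks 4765 and 4669 bp away in the lactate libraries and 4835 bp away in control replicate 3, while the nearest peak of control replicate 2 lay 6756 bp away. CYP7B1, an oxysterol hydroxylase gene, had a peak of 17 reads in control replicate 2. CYP7A1, the rate-limiting enzyme gene of bile acid synthesis, had none, nor had CYP27A1, CYP39A1 or the lanosterol demethylase gene CYP51A1.

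Many drug-metabolism genes lie in clusters of related copies, and the CYP3A, CYP2C and CYP2A to CYP2S clusters held fewer peaks per Mb than coding gene windows in every library. The CYP3A cluster on chromosome 7 (99643194 to 99871093 with its flanks) encodes the main drug oxidases of liver and gut. It held no peak in either lactate library and 1 peak in each control library. Those control peaks were near CYP3A43, 499 and 487 bp wide with 16 and 15 reads, and they lay 4670 and 4735 bp from the gene, just inside the limit. Without flanks CYP3A43 had no peak, and CYP3A4, CYP3A5 and CYP3A7 had none with or without them. The CYP2C cluster on chromosome 10, 396 kb long with its flanks, held a single peak, of 14 reads in CYP2C19 in control replicate 2. CYP2C8 and CYP2C18 had none. The cluster thus held 2.53 peaks per Mb in control replicate 2, against 26.6 per Mb over all coding gene windows.

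Around CYP2A6, CYP2B6, CYP2F1 and CYP2S1 on chromosome 19, 374 kb with flanks, there were 4 and 3 peaks in the lactate libraries and 2 and 3 in the control libraries. CYP2A6, CYP2A7, CYP2B6 and CYP2F1 had no peak in their windows. CYP2A13, an enzyme gene known from the airways, had a peak of 387 bp with 25 reads in lactate replicate 2 and a peak of 313 bp with 12 reads in lactate replicate 3. These CYP2A13 peaks lie 7543 and 1713 bases into the gene and do not overlap, so no region of CYP2A13 was marked in both lactate libraries. With a -log10 q of at least 5 only the peak of lactate replicate 2 was left.

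CYP1A2, the caffeine demethylase of liver, was the drug-metabolism gene marked in all 4 libraries, within its span on chromosome 15 (74748845 to 74756607). Its peak was 986 and 1003 bp wide in the lactate libraries and 774 and 923 bp wide in the control libraries. The fold there was 9.19 and 9.75 in the lactate libraries and 5.55 and 6.37 in the control libraries, with no overlap in either measure. A larger summed width with lactate, without overlap, was seen at 4.56% of the 6601 coding genes marked in all 4 libraries, and CYP1A2 and CYP4F22 were the P450 genes among them. The summit of CYP1A2 held 21 and 24 reads in the lactate libraries and 20 and 22 in the control libraries, while the local background was 1.07 and 0.975 scaled reads against 1.71 and 1.74. CYP1A1, its partner in the dioxin response, and CYP1B1 had no peak. CYP2E1, the ethanol-inducible enzyme gene, had a peak at 1 site in 3 libraries, with 20 reads in each lactate library and 19 in control replicate 2. CYP2D6 had a peak of 31 reads in control replicate 3 alone.

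Several P450 genes have near-identical copies, among them CYP2A6 with CYP2A7, CYP2D6 with the pseudogene CYP2D7, CYP4A11 with CYP4A22, CYP11B1 with CYP11B2, and CYP21A2 with its pseudogene. How reads that match several places were handled is not given in the sources used here. The presence or absence of a peak inside these copies is therefore uncertain.

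The CYP4F cluster on chromosome 19, 436 kb with its flanks, was the longest of the P450 gene clusters and held the most peaks. It also held the most per Mb in the replicate 2 libraries, but not in the replicate 3 libraries. There were 11 and 9 peaks in the lactate libraries, or 25.2 and 20.6 per Mb, and 13 in each control library, or 29.8 per Mb, while the CYP11B pair held 18.0 and 36.0 per Mb with lactate and 18.0 and 54.1 per Mb in control. CYP4F22, an omega-hydroxylase of very long fatty acids needed for the skin barrier, was the gene of this cluster with more peaks in both lactate libraries than in both control libraries. CYP4F22 (15508525 to 15552317) held 3 and 2 peaks in the lactate libraries and 1 in each control library, and these summed to 1075 and 696 bp against 337 and 385 bp. A site at 15525317 to 15525716 had a fold of 11.1 and 12.4 in the lactate libraries, no peak in control replicate 2 and a fold of 6.42 in control replicate 3. That CYP4F22 site held 32 and 40 reads over a local background of 1.83 and 2.0 reads in the lactate libraries, and 33 reads over 4.01 in control replicate 3. A further CYP4F22 site, at 15511709 to 15512054, was the region of the whole family with peaks in both lactate libraries and no control library, with 24 and 34 reads. More peaks with lactate in both libraries, as at CYP4F22, was seen at 3.12% of the 6601 coding genes.

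CYP4F8, a prostaglandin hydroxylase gene, had peaks summing to 833 and 344 bp in the lactate libraries and 1848 and 1759 bp in the control libraries. CYP4F3, the leukotriene B4 hydroxylase gene, had 1 peak in each control library, of 10 and 21 reads, at different places. With equal numbers of peaks per library, CYP4F3 and CYP3A43 were each marked in a single control library, and CYP4F11 lost its peak in 1 control library. CYP4F12 had a site with 18 reads in lactate replicate 2 and 22 in control replicate 3. Outside the cluster, CYP4B1 had a peak at 1 site with 12 and 13 reads in the lactate libraries and 17 in control replicate 3. CYP2U1, CYP4A11 and CYP4V2 had none. Among genes of less settled role, CYP4X1 had a control site of 637 and 636 bp with 19 and 37 reads and no lactate peak within 125630 bp. Peaks in the CYP2W1 window, outside its span and over another coding gene, CHLSN, held the largest summit counts, 46 reads in lactate replicate 2 and 49 and 51 in the control libraries, but over a local background of 10.7 reads or more, so that the fold did not exceed 4.34. CYP2S1 had peaks in lactate replicate 2 and both control libraries, while CYP2A7, CYP4A22, CYP4Z1 and CYP20A1 had none.

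**Figure D4:**
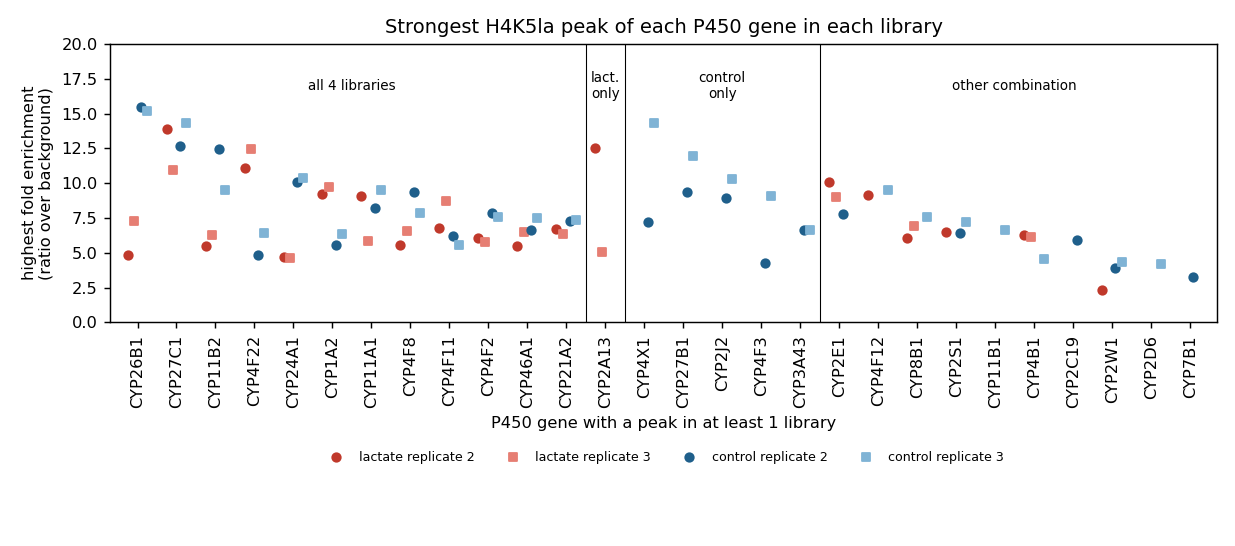
The y axis gives the fold enrichment of the strongest peak of each of the 28 P450 genes with a peak, 1 point per library, and genes are grouped by the libraries that had a peak. CYP26B1, CYP24A1 and CYP11B2 have control points above both lactate points, and CYP4F22, CYP1A2 and CYP4F11 have lactate points above both control points. The strongest peaks of a gene can lie at different sites in different libraries, as at CYP24A1.

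Among the 12 genes marked in all 4 libraries, the summed peak width was lower in both lactate libraries than in both control libraries at 7, as it was at 70.0% of such coding genes, and higher at 2. The highest fold was lower with lactate without overlap at 7 (28.9% of such coding genes) and higher at 3 (25.2%), which were CYP1A2, CYP4F11 and CYP4F22. CYP11A1 and CYP27C1 overlapped in fold. Summed widths count whole peaks, and the gap in width at CYP11B2 rests on a peak that ran past its window.

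Peaks of the 4 libraries that shared at least 1 base were merged into regions, which gave 56 in the P450 windows. Peaks in all 4 libraries were found in 14 of them (25%, against 28.8% of all 71122 regions), in both control libraries alone in 8 (14.3%, against 14.6%) and in both lactate libraries alone in 1 (1.79%, against 2.75%). Among the 14 shared regions, the fold was lower in both lactate libraries than in both control libraries in 6 and higher in 3. Over all 20499 shared regions these shares were 34.3% and 23.2%. The width of the strongest peak was lower with lactate without overlap in 9 of the 14, against 52.3% of all shared regions, and higher in 1, against 7.55%.

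The fold of a peak combines its reads with a local background taken from the input, and both were recovered. The reads were scaled to the depth of the input used for the library. How deep the 2 inputs were relative to each other is not known, so scaled reads of the 2 groups may not share a unit. At CYP4F2 the scaled background was 3.0 in both lactate libraries and 2.0 in both control libraries, where the fold was 6.04 and 5.76 against 7.84 and 7.57. The scaled reads there overlapped between the groups, at 23.2 and 22.1 against 22.5 and 21.7. At CYP26B1 (72130815 to 72133528) the background was 3.0 in both lactate libraries and 0.837 and 0.836 in the control libraries. The control values equal the 1st percentile of the background over all peaks of those libraries, so the control fold there rests on the lowest background level. The scaled reads at CYP26B1 were 16.3 and 15.2 against 21.1 and 26.9. At the shared region beside CYP21A2 the fold was lower with lactate, at 6.69 and 6.33 against 7.26 and 7.37 for the peaks in the CYP21A2 window, while the scaled reads were higher, at 25.7 and 24.3 against 15.5 and 15.7. At CYP4F11 the fold was higher with lactate, at 6.77 and 8.73 against 6.20 and 5.57, while the scaled reads were lower, at 11.2 and 14.4 against 17.6 and 15.7. The CYP4F11 background was 0.795 and 0.77 in the lactate libraries, again their 1st percentile, and 2.0 in both control libraries.

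Over the 14 shared regions the scaled reads were lower with lactate without overlap in 4 (19.0% of all shared regions), higher in 4 (33.2%) and overlapping in 6. CYP1A2 and the region beside CYP27B1 were higher with lactate in both scaled reads and fold. For 1 CYP26B1 region, the inner CYP46A1 region and the region beside CYP11B2 both were lower. Without scaling, the reads left no gap between the groups at CYP1A2 (21 and 24 against 20 and 22) or beside CYP27B1 (21 and 22 against 19 and 21). Unscaled reads stayed lower with lactate at the CYP26B1, CYP46A1 and CYP11B2 regions. The counts over the 14 shared regions use the strongest peak of a merged region. That peak can lie beyond the window of the gene, as it did at CYP11B2, CYP21A2 and CYP27B1. Among peaks that touched the CYP11B2 window, the scaled reads at the shared site were higher with lactate, at 26.6 and 30.4 against 23.9 and 16.5, while the fold was lower, at 5.52 and 6.28 against 12.5 and 9.51. The background was higher with lactate in 9 regions (43.7% of all shared regions), lower in 4 (39.5%) and overlapping in 1 (16.7%). The labels list 1 input for each treatment, so both libraries of a group would take their background from the same input. A gap in background between the groups then compares 1 input with 1 input and is not agreement between replicates. Lactate and the input library therefore cannot be told apart in the fold or in the background.

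**Figure D5:**
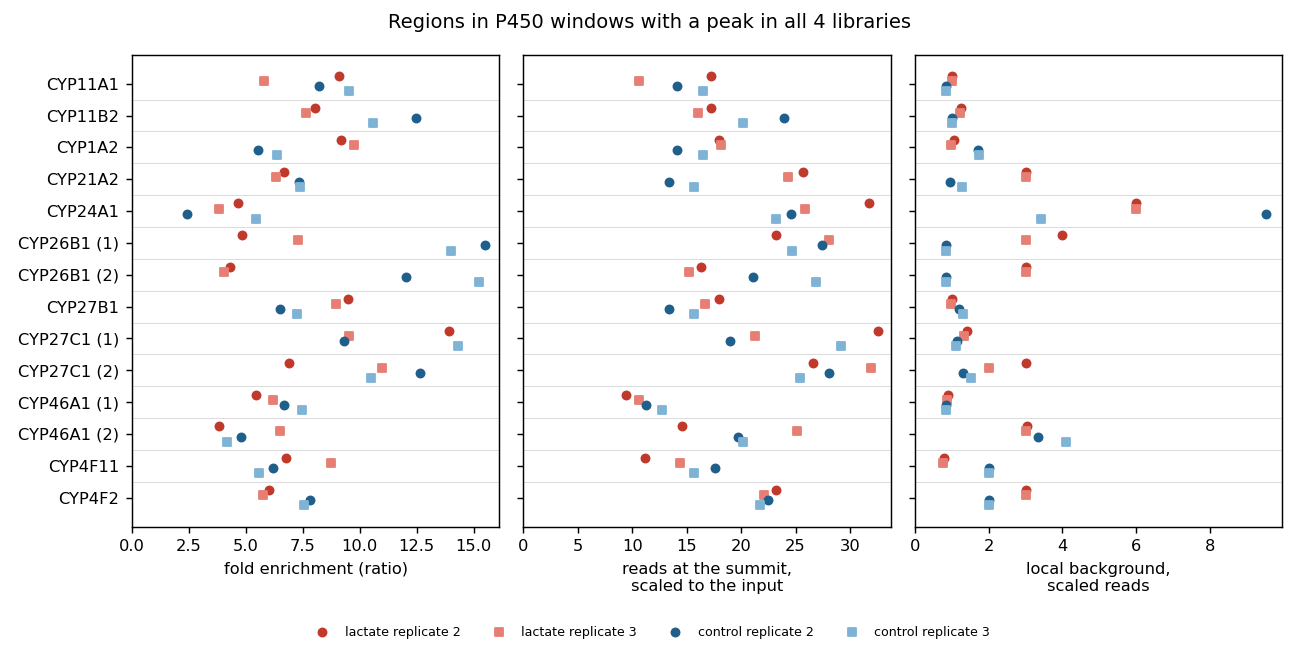
Each row is one of the 14 regions in P450 windows with a peak in all 4 libraries, and the panels give the fold enrichment, the summit reads scaled to the input, and the local background in scaled reads, lactate points drawn above control points. At CYP4F2 the fold separates the groups (6.04 and 5.76 against 7.84 and 7.57) while the reads overlap, and at CYP21A2 the order of the groups differs between fold and reads.

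Genes that work with the P450 enzymes were described in the same way. Of 8 genes for electron donors and partners, 5 had a peak in all 4 libraries (62.5%, against 33.0% of all coding genes), in windows with a median of 35.1 kb: POR, the oxidoreductase gene, CYB5A and CYB5R3 of the cytochrome b5 system, and FDX2 and FDXR of the mitochondrial chain. The peaks of POR summed to 1956 and 1030 bp in the lactate libraries and 5346 and 5662 bp in the control libraries. PGRMC1 and PGRMC2 had none. Of 18 regulators, 8 had a peak in all 4 libraries (44.4%, against the same 33.0%), and the median window of the regulators, 58.0 kb, was longer than the 34.2 kb of all coding genes. Among the 8 were HNF4A, VDR, RXRA, the PXR gene NR1I2 and AHRR, the repressor of the dioxin receptor. RXRA, the shared partner of many of these receptors, had peaks summing to 30555 and 28398 bp in the lactate libraries and 79030 and 81851 bp in the control libraries, and AHRR had 18 peaks in every library. NR0B2, a repressor of bile acid synthesis genes, and NR1H2 had peaks in the control libraries alone. AHR, ARNT and NFE2L2 had none. The P450 genes with other names, TBXAS1 for thromboxane synthase and PTGIS for prostacyclin synthase, both had a peak in all 4 libraries. Their windows, 252.1 and 74.3 kb, were longer than the 34.2 kb median of all coding genes. TBXAS1 held 13 and 12 peaks with lactate and 19 and 15 in control.

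The 27 P450 genes without a peak lie, by that definition, over 5 kb from any. The nearest peak of any library lay a median of 38608 bp from the gene, and over 20 kb away for 20 of them and over 50 kb away for 13. No matching distances are given for the other coding genes without a peak, so these do not mark the family out. CYP27A1 was the closest, with a peak at 5416 bp in control replicate 3. Their median window of 31.9 kb was close to the 31.3 kb of the genes marked in all 4 libraries, and the ranges of window length overlap. Of 58 P450 pseudogenes, 4 had a peak in all 4 libraries (6.90%), against 5.56% of all 16458 pseudogenes, and 47 had none.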

How the data were processed

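The H4K5la libraries were 2 from lactate-treated and 2 from control PLC/PRF/5 cells, grouped by their treatment labels. Per the labels' protocols, chromatin was precipitated with commercial kits, and reads were trimmed, aligned and freed of duplicates. MACS2 2.2.6, Bowtie2 2.3.4.2, Picard 2.18.11 and Trimmomatic 0.38 are among the tools named in the submitters' processing notes, with hg38 as the build. Each deposited list holds 1 library and gives, per peak, a whole-number score, a fold enrichment over background (a ratio), significance as -log10 p and -log10 q, and a summit offset in bases. Peak-calling settings are not given in the sources used here. They hold no read counts.

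Reads at each summit were recovered by solving the caller's formulas for the deposited fold and -log10 p. Whole reads were found for 100% of peaks within 0.001, with a second solution for 0.0824 to 0.422%, and the step was tested on simulated peaks. ChIP libraries came out 1.17 and 1.31 (lactate) and 1.42 and 1.34 (control) times as deep as their input, under the caller's usual scaling.

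Genes and promoters came from RefSeq tables without exons, so exonic and intronic positions were not assigned. Values per library were tested by exact two-sided permutation of the labels, with 6 assignments. Intervals over genes are not given, since genes are not replicates. The members, role lists and partner lists were chosen with earlier results of these data known. Values in every library are given for genes marked in all 4 libraries or in both libraries of 1 treatment alone, for marked promoters and for the widest control peaks; other members are named to account for the family, except for an item that is not reported here. Python 3.11.15, pandas 2.3.3, numpy 2.4.6, scipy 1.17.1 and matplotlib 3.10.9 were used.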

Additional observations from a re-analysis of the deposited data

How the results depend on the processing

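The results were recomputed with no flank, a minimum -log10 q of 5, equal numbers of peaks in the libraries, a flank of 20 kb, summits in place of overlap, peaks over no other coding gene, peaks joined within 1 kb, and each library left out. The ratios of lactate to control for marked genes, peaks and covered length stayed below 1 in all of these. With equal numbers of peaks, genes marked in the control libraries alone numbered 3, without CYP3A43 and CYP4F3, and in the lactate libraries alone 2, and CYP4F11 was no longer marked in all 4. CYP4F3 was marked in 1 control library at a -log10 q of 5 and in all 4 libraries with a flank of 20 kb. A flank of 20 kb gave 21 genes marked in all 4 libraries. Summits in place of overlap gave 2 genes marked in the lactate libraries alone. Counts under these settings cover the P450 genes only, without the matching shares of all coding genes. Under a reciprocal overlap of 50%, 5 regions were shared by all 4 libraries, 11 were found in control alone and 4 with lactate alone. That rule also counts a narrow peak as alone when it overlaps a much wider peak of the other group, as at CYP4F2. A region counted with lactate alone under it can therefore hold a control peak. Lactate-only regions numbered 2 with a -log10 q of at least 5 and 2 with equal numbers of peaks. Ratios with 1 library left out were 0.696 to 0.826 for marked genes, 0.571 to 0.779 for peaks and 0.416 to 0.518 for covered length. Leaving out 1 library gave 12 to 14 genes marked in all remaining libraries, 5 to 7 in control alone and 1 to 3 in lactate alone, the last being 2 without control replicate 2 and 3 without control replicate 3. The difference in the share of peaks in P450 windows, -0.00501 percentage points, lay between -0.0159 without lactate replicate 2 and 0.00587 without lactate replicate 3, so its sign rests on single libraries. The causes of these shifts were not tested.

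The replicate numbers give no stated pairing, and deviations of same-numbered libraries had r = 0.015 over 11870 coding genes. With the replicate block the ratios were 0.765 for marked genes, 0.685 for peaks and 0.470 for covered length (exact sign-flip p = 0.5, the smallest it allows), and the difference in share was -0.00501 (p = 1, exact).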

Other observations

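The P450 pseudogenes, inactive copies named like the genes, with a peak in all 4 libraries were CYP2AB1P, CYP2T1P, CYP4F24P and CYP4F44P. CYP2AB1P, on chromosome 3, had a highest fold of 10.02 and 6.55 in the lactate libraries and 8.81 and 10.1 in the control libraries. CYP2T1P, which lies beside the CYP2A genes on chromosome 19, had a highest fold of 11.6 and 10.02 in the lactate libraries and 9.35 and 10.3 in the control libraries, while CYP2A6 and CYP2A7 had no peak. CYP4F24P, within the CYP4F cluster, had 1 peak in each lactate library and 2 in each control library. CYP2A7P1, a CYP2A7 copy, had a peak in lactate replicate 3 and both control libraries, with a fold of 10.02 against 10.9 and 9.92. The P450 pseudogenes had a median span of 2103.5 bp against 716 bp for all pseudogenes.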
